A study of Avicennia officinalis with 4 samples.

Results

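Auxin is the hormone that patterns growth of the root, and its action depends on where it is moved as much as on how it is read. PIN proteins are efflux carriers that carry auxin out of cells or, for some members such as PIN6 in Arabidopsis, also act at internal membranes. Auxin response factors (ARFs) are transcription factors that bind the promoters of auxin-responsive genes, and Aux/IAA repressors hold them back until auxin causes the repressors to be degraded. In Arabidopsis roots under salt, changes in PIN levels and positions are known to redirect growth. The unigenes described here are 6 of the 168308 in the deposited table for roots of the mangrove Avicennia officinalis, namely the PIN carriers and ARFs that the study names with a number. The table holds more unigenes than the study states for its assembly. They comprise 2 efflux carriers, PIN6 (Unigene39089_All, called Ug39089 here, and likewise for the others) and auxin efflux carrier component 2 (Unigene86727_All), and 4 ARFs, namely ARF25 (Unigene60441_All), Unigene26596_All, Unigene119295_All and Unigene27026_All. The study places the last 3 in the ARF family and ties no member name to their numbers. The study lists PIN6 and the first 3 ARFs as up-regulated, and Ug86727 and Ug27026 as down-regulated. They were listed from the difference between the same libraries as those used here, so this difference, fitted fold changes included, is given as a description, with no p for a member. The study also reports qRT-PCR of selected genes, PIN6 and the potassium channel SKOR among them, which is not used here.

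Salt-treated roots came from seedlings watered with nutrient solution containing 500 mM NaCl for 24 h, and control roots came from seedlings labelled as control, for which the sources do not describe the watering over those 24 h. All seedlings were raised without salt in a greenhouse from collected propagules and were about 2 months old. Each group had 2 mRNA-sequencing libraries, and each library pooled the roots of 3 plants. The reads counted on unigenes in a library, in units of 1000000 reads, ranged from 17.1 to 22.4. Values are given as reads, as CPM (reads scaled to 1000000 counted reads) and as RPKM (CPM per kilobase of unigene). The table pairs no unigene with a gene name or a sequence, so the labelled tissue could not be checked against marker genes, and transcripts that share reads with a near-identical copy could not be told apart. A root holds many cell types, and fewer cells of a type and less RNA per cell cannot be told apart in such samples.

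PIN6, the efflux carrier that the study lists as up-regulated, had more reads in both salt-treated libraries than in both control libraries. Its unigene is 310 bp long, shorter than the coding sequence of known PIN genes. The number of PIN6 was read from the study's network drawing. The 2 salt-treated libraries held 25 and 17 PIN6 reads (replicates 1 and 2), against 9 and 1 in the 2 control libraries. The groups did not overlap, and the salt-treated libraries were close to each other while the control libraries were apart. The RPKM was 3.45 ± 0.355 (SD, n = 2 libraries) in salt-treated roots and 0.737 ± 0.786 (SD, n = 2) in control roots. Scaled to library size, the summed reads were 4.35-fold higher in salt-treated roots, with an exact interval of 2.15- to 9.71-fold that covers counting error only. In edgeR the log2 fold change was 2.13 (standard error 1.06). This and the other edgeR standard errors given here were worked back from the F statistic of the test and are approximate. The size of this change depended on the control libraries. Leaving out control replicate 1 gave a log2 fold change of 4.07, and leaving out control replicate 2 gave 1.40. In each of the 4 ways to set 1 salt-treated library against 1 control library, PIN6 was higher in the salt-treated one. The smallest of these ratios was 2.48-fold (salt-treated replicate 2 over control replicate 1, exact interval 1.04 to 6.30) and the largest was 20.4-fold (salt-treated replicate 1 over control replicate 2, exact interval 3.35 to 839), where the denominator was a single read.

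**Figure D1:**
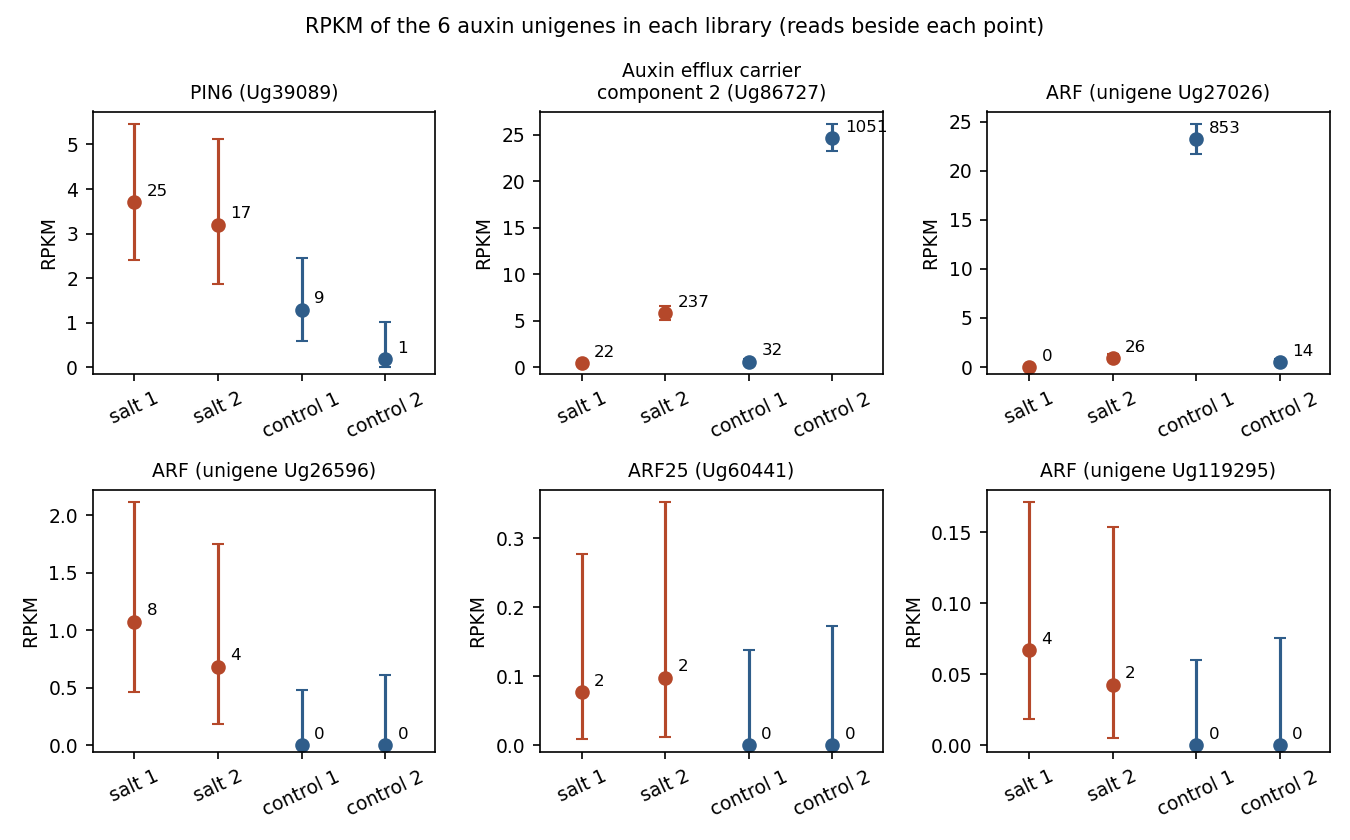
RPKM of each of the 6 auxin unigenes (vertical axis, linear, a scale of its own in each panel) in the 2 salt-treated libraries (red, left) and the 2 control libraries (blue, right), with reads printed beside the points and bars for the exact 95% Poisson interval of the reads. PIN6 and 3 ARF unigenes are higher in both salt-treated libraries, whereas Ug86727 is high in control replicate 2 (24.7 RPKM) and Ug27026 in control replicate 1 (23.2 RPKM).

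Auxin efflux carrier component 2 (Ug86727, 2392 bp) had most of its reads in the replicate 2 libraries of both groups. The study gives this name but pairs the unigene with the Arabidopsis locus known as PIN4, so the PIN it corresponds to is uncertain. There were 22 and 237 reads in salt-treated replicates 1 and 2, against 32 and 1051 reads in control replicates 1 and 2. The groups overlapped, since salt-treated replicate 2 lay above control replicate 1. The RPKM was 3.10 ± 3.79 (SD, n = 2) in salt-treated roots and 12.6 ± 17.0 (SD, n = 2) in control roots, so that the spread within each group was larger than its mean. Salt-treated replicate 2 alone held 93.2% of the salt-treated CPM, and control replicate 2 held 97.6% of the control CPM. Within replicate number 2 the salt-treated library was 4.27-fold lower (ratio 0.234, exact interval 0.203 to 0.270). Within replicate number 1 it was 1.41-fold lower, with an exact interval of the ratio from 0.392 to 1.26 that includes no difference. The edgeR log2 fold change was -2.04 (standard error 1.87), and it became 2.42 without control replicate 2. The direction of the fit that ignores replicate number therefore depended on that library. Leaving it out set both salt-treated libraries against control replicate 1 alone, across replicate numbers. In a fit of all libraries with the replicate number as a second term, the log2 fold change was -1.45.

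**Figure D2:**
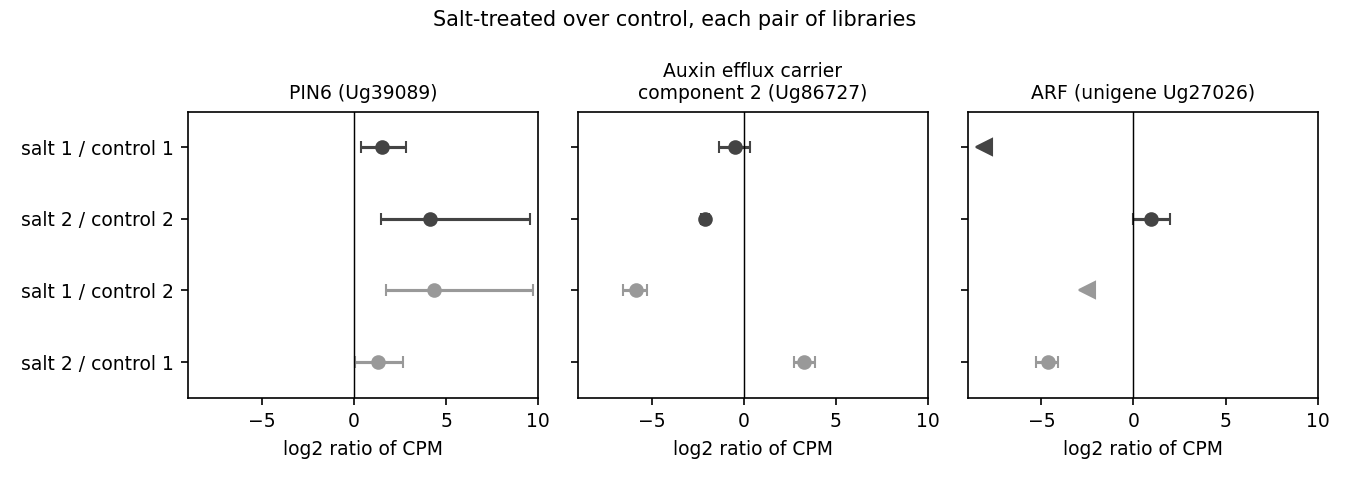
Log2 ratio of CPM (horizontal axis) of each salt-treated library over each control library (rows) for PIN6, Ug86727 and Ug27026, with exact 95% intervals for counting error as bars. Dark points share a replicate number and grey points do not, and triangles mark ratios with 0 reads in the salt-treated library, drawn at the limit given by 3 reads. All 4 ratios are above 0 for PIN6, and the ratios fall on both sides of 0 for Ug86727 and Ug27026.

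The difference between replicates was large for Ug86727 compared with other unigenes. Replicate 2 was 13.7-fold above replicate 1 in the salt-treated group (exact interval 8.84 to 22.3) and 41.4-fold above it in the control group (29.1 to 60.9). On the scale of log2(CPM + 0.1), the difference between its replicates was as large as or larger than that of 97.3% (salt-treated) and 98.5% (control) of the 62900 unigenes with enough reads to be tested. For PIN6 the corresponding percentages were 13.1% for the pair of salt-treated libraries and 80.1% for the pair of control libraries. The median size of this difference over tested unigenes was 0.80 between replicates in each group, compared with 0.31 between salt-treated and control libraries of replicate number 1 and 0.51 for number 2. The 2 carriers thus differed in which libraries were high. PIN6 was high in both salt-treated libraries, and Ug86727 was high in both libraries with replicate number 2.

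Among the ARFs, Ug27026 (1639 bp) was the only one with more than 12 reads in all, and its reads were almost entirely in 1 library. The 2 salt-treated libraries held 0 and 26 of its reads (replicates 1 and 2), against 853 and 14 in the 2 control libraries. Control replicate 1 held 98.0% of the control CPM, and the groups overlapped because salt-treated replicate 2 lay above control replicate 2. The RPKM was 0.463 ± 0.655 (SD, n = 2) in salt-treated roots and 11.8 ± 16.1 (SD, n = 2) in control roots. The direction differed between the replicate numbers. Within number 1 the salt-treated library was 276-fold lower when 3 reads were put in place of its 0 reads. The exact interval of that ratio, from 0 reads, reaches up to 0.00447. Within number 2 the salt-treated library was 1.93-fold higher, with an exact interval of 0.972 to 4.0 that includes no difference. The edgeR log2 fold change of -4.67 (standard error 2.41) became -0.08 without control replicate 1. Few unigenes with many reads in control replicate 1 had 0 reads in salt-treated replicate 1. Of the 6452 unigenes with 500 or more reads in control replicate 1, 3 had 0 reads in salt-treated replicate 1, Ug27026 among them. This limit was chosen after the values were seen, and Ug27026 was listed for its difference between these libraries. Nothing is therefore read from this count.

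ARF25 (Ug60441, 1196 bp), Ug119295 (2742 bp) and Ug26596 (342 bp) had reads in both salt-treated libraries and 0 reads in both control libraries. ARF25, the ARF that the study uses as the centre of a gene network including PIN6, had 2 reads in each salt-treated library, against 0 reads in each control library. Ug119295 had 4 and 2 reads in salt-treated replicates 1 and 2, against 0 and 0 reads in the control replicates. Ug26596 had 8 and 4 reads in salt-treated replicates 1 and 2, against 0 and 0 reads in the control replicates. All 3 therefore had non-overlapping groups, from a total of 4, 6 and 12 reads. A bound was set by putting 3 reads over the control group in place of 0 and taking the salt-treated reads as exact. In salt-treated roots it was 4.14-fold higher for Ug26596, 2.07-fold for Ug119295 and 1.38-fold for ARF25. The exact interval of the ratio, which takes in counting error of both groups, starts lower. It starts at 2.88 for Ug26596, 1.22 for Ug119295 and 0.683 for ARF25, so that counting error alone allows no difference in ARF25 at this depth. These bounds depended on which libraries were kept. Leaving out any 1 library left ARF25 with no bound, leaving out salt-treated replicate 1 or control replicate 1 left Ug119295 with none, and the log2 bound of Ug26596, 2.05 with all libraries, came to 0.87 when control replicate 1 was left out and to 1.21 when control replicate 2 was. None of the 3 passed the filter on low counts. Of all 168308 unigenes, 945 had 0 reads in both control libraries, reads in both salt-treated libraries and 4 or more of them in sum, as ARF25 had, and 1072 had the reverse pattern. At 12 or more reads in sum, as for Ug26596, these counts were 99 and 149.

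**Figure D3:**
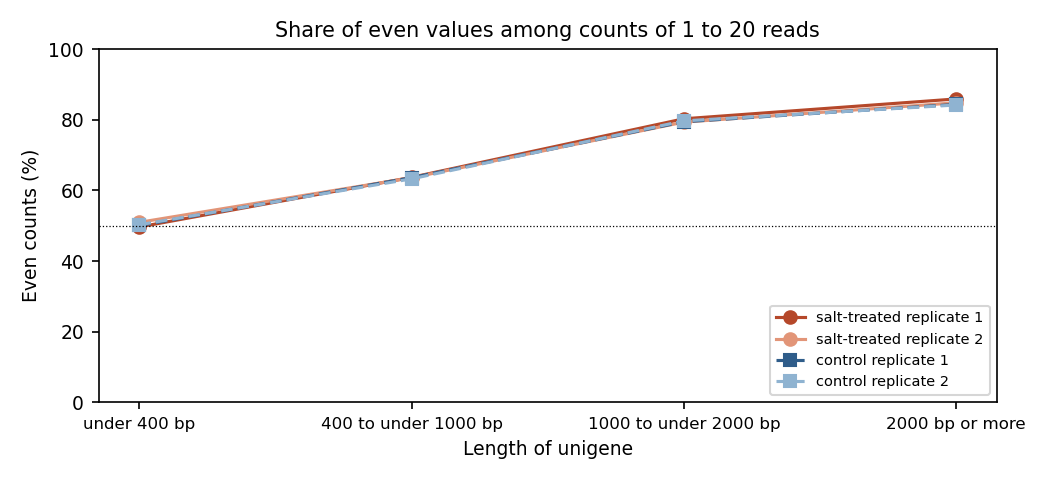
Share of even values (vertical axis, percent) among counts of 1 to 20 reads in each library, for unigenes in 4 classes of length (horizontal axis), with salt-treated libraries as circles and control libraries as squares. The share is near 50% (dotted line) under 400 bp and between 84.2% and 85.9% at 2000 bp or more in every library.

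The unit of counting bears on these small numbers. All 6 counts above 0 of the 3 ARFs without control reads were even, and over all 6 members 10 of 17 counts above 0 were. Over all unigenes and libraries, 79.7% of counts from 1 to 20 were even for unigenes of 1000 to under 2000 bp and 84.8% for those of 2000 bp or more, compared with 50.3% under 400 bp, as the plot of even counts by length shows. The sources do not say whether the 2 reads of a pair were each counted. If both reads of each pair were counted, the salt-treated reads would be 3 pairs for Ug119295, 2 pairs for ARF25 and 6 pairs for Ug26596. Ug26596 and PIN6 are in the class under 400 bp, where even and odd counts were about equally frequent, and the counts of PIN6 were odd in every library. With pairs as the unit, Ug119295 and ARF25 are at or below the limit of 3 counts and have no fold. The bound for Ug26596 is then 2.07-fold higher, and the exact interval of its ratio starts at 1.22.

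The levels of the members, compared per length, were widely spread. By mean RPKM over the 4 libraries, Ug86727 and Ug27026 were at the 90.5th and 88.2nd percentile of the 121929 unigenes with reads, each with 1 high control library. PIN6 was at the 70.2nd percentile, Ug26596 at the 33.5th, ARF25 at the 6.50th and Ug119295 at the 3.88th. In salt-treated roots the descending order by mean RPKM was PIN6 (3.45), Ug86727 (3.10), Ug26596 (0.879), Ug27026 (0.463), ARF25 (0.0872) and Ug119295 (0.0548). PIN6 and Ug86727 did not differ beyond their spread in this order, and neither did Ug86727 and Ug26596, nor Ug26596 and Ug27026, nor Ug27026 and ARF25. The values of ARF25 and Ug119295 did not overlap, but they rested on 4 and 6 reads. In control roots the order was Ug86727 (12.6), Ug27026 (11.8) and PIN6 (0.737), whose values overlapped from each to the next, and the other 3 ARFs were at 0.

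Auxin transport and auxin response were then set side by side as sums of their members. The summed RPKM of the 2 carriers was 4.13 and 8.99 in salt-treated replicates 1 and 2, against 1.89 and 24.9 in control replicates 1 and 2. The summed RPKM of the 4 ARFs was 1.22 and 1.75 in salt-treated replicates 1 and 2, against 23.2 and 0.480 in control replicates 1 and 2. The carriers were above the ARFs in 3 of the 4 libraries, and the exception was control replicate 1. The ratio of transport to response was 3.39 and 5.14 in the salt-treated libraries, against 0.0815 and 51.8 in the control libraries, so that the control libraries lay on either side of both salt-treated libraries. The sums followed single unigenes. Ug86727 made up 10.2% of the transport sum in salt-treated replicate 1 and 99.3% of it in control replicate 2, and Ug27026 made up 0% of the response sum in salt-treated replicate 1 and 100% of it in both control libraries. On the scale of summed CPM, the log2 ratio of salt-treated to control means was -1.84 for transport and -3.88 for response. It became 2.22 for transport without control replicate 2 and 0.74 for response without control replicate 1. On the scale of summed RPKM it was -1.03 for transport and -3.0 for response. Left without Ug86727 and Ug27026, the transport sum is PIN6 alone, and the remaining ARFs had 1.22 and 0.823 RPKM in salt-treated replicates 1 and 2, against 0 in both control libraries.

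**Figure D4:**
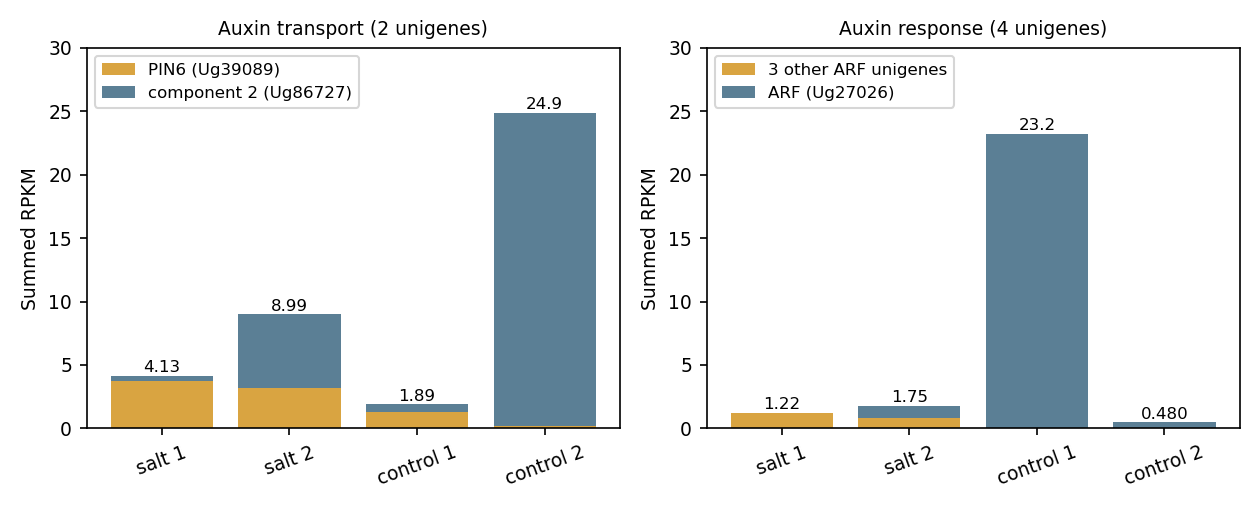
Summed RPKM (vertical axis, starting at 0) of the 2 auxin carriers (left panel) and the 4 ARF unigenes (right panel) in the 2 salt-treated and the 2 control libraries, with the sum printed above each bar and the member with the highest single value in blue. The highest sums are in control replicate 2 for transport (24.9) and in control replicate 1 for response (23.2).

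In the edgeR fit over all unigenes (quasi-likelihood test, condition as the only term, Benjamini-Hochberg adjustment), 0 of the 62900 unigenes tested (0%) had an adjusted p of 0.05 or less, and 3 of the 6 members, PIN6, Ug86727 and Ug27026, were among those tested. The count was also 0 (0%) when the thresholds of the study were put to this edgeR test. The study does not describe this test, and by its own procedure it reports both up- and down-regulated unigenes. The p-values that it lists for the 3 ARFs without control reads are above its stated p threshold. Without adjustment, 129 unigenes (0.205%) had a p under 0.05 in edgeR. At an adjusted p of 0.05, DESeq2 called 1 unigene as higher and 1 as lower. For 4 of the 6 members, PIN6 and the 3 ARFs without control reads, the lower salt-treated value exceeded the higher control value in CPM. The same order of groups was found in 9.43% of the tested unigenes and 9.7% of all unigenes with reads. The members were listed for their direction in these libraries, so nothing is read from this count. None of the 6 had both salt-treated libraries below both control libraries, which held for 6.92% of the tested unigenes and 7.48% of those with reads. Within both replicate numbers, the salt-treated library was above the control library for the same 4 members (27.1% of tested unigenes and 22.6% of those with reads) and below it for 1 member, Ug86727 (20.6% and 16.8%). The smallest two-sided p that an exact permutation test can reach for 1 unigene in this design is 0.333.

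Of the further auxin-responsive genes that the study names, 2 could be followed by their number, which for SKOR was also read from the network drawing. SKOR (Ug107038, 5597 bp), an outward rectifying potassium channel of the stele, had 5 and 4 reads in the salt-treated libraries, against 2 and 0 reads in the control libraries. As for PIN6, its groups did not overlap, but it rested on 11 reads in all. The 14-3-3-like protein GF14 kappa (Ug150075, 268 bp), of a family of phosphoprotein-binding regulators, had 0 and 26 reads in salt-treated replicates 1 and 2, against 0 and 3 reads in control replicates 1 and 2. Its reads were thus confined to replicate number 2, and its groups overlapped. Neither passed the low-count filter, so 0 of these 2 were tested. Aux/IAA repressors, GH3 conjugating enzymes, auxin-binding and auxin-induced proteins and the ABCB transporter were not analysed here.

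Compared with the other unigenes that the study lists, the ARFs had few reads. Fewer than 20 reads in all 4 libraries together were found for 3 of the 4 ARFs and for 12 of the 53 other transcription factor unigenes, as for 33.8% of all unigenes with reads. The median total was 9 reads for the ARFs and 57 reads for the other transcription factors. No control read was found for 3 of the 4 ARFs, for 7 of the 53 others and for 5.78% of all unigenes with reads. The ARFs without control reads are listed as up-regulated. Among the 24 other transcription factors listed as up-regulated, 6 had no control read and 8 had fewer than 20 reads in all, with a median of 35.5 reads. The 2 auxin carriers had 52 and 1342 reads in all, and the 6 other transporters listed had 4 to 84 reads with a median of 59. At least 90% of the control CPM in 1 control library was found for 1 of the 4 ARFs (Ug27026), 1 of the 2 carriers (Ug86727), 32 of the 53 other transcription factors and 3 of the 6 other transporters, compared with 31691 of the 121929 unigenes with reads and 7.98% of the tested ones. For salt-treated CPM in 1 salt-treated library the same limit was met by Ug27026 and Ug86727, and by 7.86% of the tested unigenes. These differences between lists were not tested, as all were drawn from the same libraries.

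To show which listed unigenes were distributed over the libraries most like the members, the share of summed CPM in each library was compared for unigenes with 20 or more reads. The distance is the share of CPM that would have to move between libraries for 2 unigenes to match, from 0 to 1. PIN6 was nearest to a dihydroxy-acid dehydratase-like unigene (Ug7542, distance 0.0246), an enzyme of branched-chain amino acid synthesis, and to a GATA factor (Ug154250, distance 0.0356). Ug7542 had 20 and 14 reads in the salt-treated libraries, against 8 and 0 reads in the control libraries. Of the 80708 other unigenes with 20 or more reads, 205 (0.254%) were within 0.1 of PIN6. Ug86727 was nearest to a xyloglucan endotransglucosylase (Ug128815, distance 0.0174), which remodels the cell wall, and to 6-phosphofructokinase 6 (Ug15973, distance 0.0286), an enzyme of glycolysis. Ug128815 had 0 and 20 reads in salt-treated replicates 1 and 2, against 2 and 84 reads in control replicates 1 and 2, and 659 unigenes (0.817%) were within 0.1 of Ug86727. Ug27026 was nearest to a bZIP unigene (Ug131032) and to polyubiquitin 4 (Ug130858), both at a distance of 0.0572. Ug131032 had 2 and 0 reads in the salt-treated libraries, against 113 and 0 reads in the control libraries, and 2989 unigenes (3.70%) were within 0.1 of Ug27026. The shares rest on 4 libraries and on lists chosen from them, and are a description only.

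**Figure D5:**
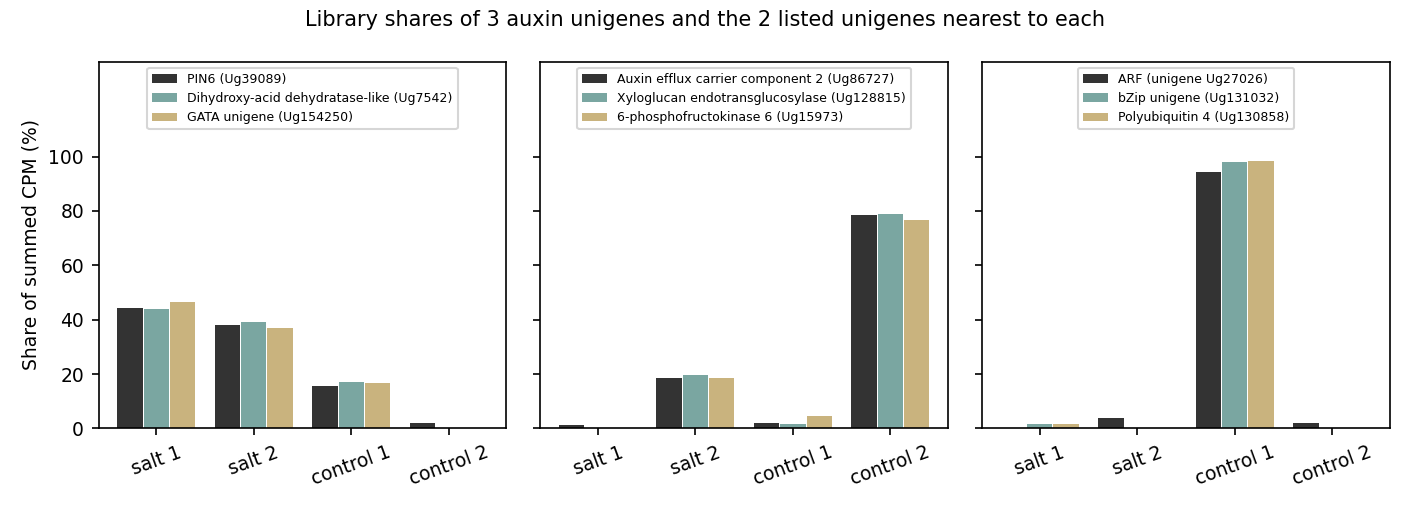
Share of the summed CPM of each unigene (vertical axis, percent) in the 2 salt-treated and the 2 control libraries, for PIN6, Ug86727 and Ug27026 (black) and the 2 listed unigenes nearest to each (colours). Between 76.9% and 79.0% of the CPM of the unigenes in the middle panel is in control replicate 2, and 94.3% or more of that in the right panel is in control replicate 1.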

How the data were processed

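The reads came from roots of 2 salt-treated and 2 control libraries, grouped by the labels. The authors sequenced mRNA on an Illumina HiSeq, assembled clean reads de novo with Trinity (release 20121005) into unigenes, and deposited raw counts of reads per unigene, its length, and RPKM values obtained with SOAP (2.21). The deposited RPKM equals reads per kilobase scaled to 1000000 counted reads, with a largest difference of 5e-05. The members and lists were chosen with earlier results of these data known. For the fit over all unigenes, edgeR 4.0.16 under R 4.3.3 was applied to the counts (TMM scaling, glmQLFit, glmQLFTest). Unigenes were kept by filterByExpr at 15 reads in total and the CPM equivalent of 10 reads in at least 2 libraries. PIN6, with 9 and 1 control reads, passed through its 25 and 17 salt-treated reads. The script was tested on simulated counts, where recovery of changed unigenes was required only at a smaller spread between replicates than here. The common biological coefficient of variation, a measure of that spread, was 0.671 in these data. The absence of calls therefore does not show that no unigene changed. Alternatives were DESeq2 1.42.0, limma 3.58.1 after adding 0.1 or 1 to the RPKM and taking log2, other scaling and filters, the replicate number as a block, and each library left out. Ratios of summed reads used counted library sizes with exact Clopper-Pearson intervals (95%) in Python 3.11.15 with scipy 1.17.1. PCR copies are not independent molecules, so that these intervals and limits describe counting error alone. The labels call the replicates biological, and each is a separate pool of plants. Named were all 6 members, the other auxin-responsive unigenes that the study gives with a number, and the 2 nearest listed unigenes for members with 20 or more reads. No sequence of the unigenes was used here.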

Additional observations from a re-analysis of the deposited data

How the results depend on the processing

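Other scaling factors, filters, limma and DESeq2 kept the direction of the fitted log2 fold change of PIN6, Ug86727 and Ug27026, apart from PIN6 under the stricter filter (CPM of 1 or more in 2 libraries), which it did not pass. At an adjusted p of 0.05, DESeq2 called 1 unigene as higher and 1 as lower (1 lower at the thresholds of the study), and the fits without 1 library called 0 to 2 as lower, 2 of them without control replicate 2. The cause was not tested. At an unadjusted p under 0.05, 398 unigenes were higher and 1864 lower with no filter on low counts, 118 and 206 with DESeq2, and between 64 and 875 higher and 211 and 3307 lower with each library left out. With each library left out, the edgeR log2 fold change lay between 1.40 and 4.07 for PIN6, between -11.65 and -0.077 for Ug27026, and between -5.00 and 2.42 for Ug86727. The value of -11.65 has 0 salt-treated reads behind it, so its size is set by the prior count. The log2 ratio of summed reads lay between 1.43 and 4.26 for PIN6, between -7.29 and -0.23 for Ug27026, between -4.73 and 2.22 for Ug86727, between 0.21 and 1.30 for Ug119295 and between 0.87 and 2.30 for Ug26596. Some of these fits gave Ug119295 no bound, and none gave one for ARF25. With 2 reads of a pair as 1 count, chosen after seeing the data, the bound for Ug26596 was 1.05 on the log2 scale. For the log2 ratio of summed CPM, the ranges were -3.82 to 2.22 for transport, -4.91 to 0.74 for response and -3.54 to 7.07 for transport over response (from the ratio of the group means), where it was 2.04 with all libraries. It reversed without control replicate 1 for response (0.74) and for transport over response (-3.54), and without control replicate 2 for transport (2.22).

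The replicate numbers are shared by 1 library of each group, and nothing in the labels says that they pair. Across the tested unigenes, the difference between replicates 2 and 1 in the salt-treated libraries correlated with that in the control libraries (r = 0.688 over 62900 unigenes, which are not independent). With the replicate number as a block, edgeR called 0 unigenes. At an unadjusted p under 0.05, 586 were higher and 1572 lower (60 and 69 without the block). The log2 fold change in this fit was 2.28 for PIN6 (standard error 0.857), -1.45 for Ug86727 (0.447) and -3.48 for Ug27026 (2.61).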
